A study of Mus musculus with 20 samples.

Results

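Glutathione transferases and UDP-glucuronosyltransferases are the main conjugating enzymes of the liver. The soluble glutathione transferases (Gst) couple glutathione to reactive compounds and fall into the classes alpha, mu, pi, theta, omega, kappa and zeta, of which kappa is found in mitochondria and peroxisomes. The UDP-glucuronosyltransferases (Ugt) of the endoplasmic reticulum attach a sugar, mostly glucuronic acid, to bilirubin, steroids, bile acids and drugs, so that these can leave with bile or urine. The genes were chosen by symbol, and 44 rows of the mouse liver count table carried a soluble Gst or a Ugt1, Ugt2, Ugt3 or Ugt8 symbol. Of these, 41 genes had at least 20 counts summed over the 20 livers, 21 of them Gst and 20 Ugt genes, out of 55487 rows in the table and 22257 rows with that many counts. Gstt4 with 16 counts and both Ugt2a1 rows with 0 counts were left out.

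The RNA came from livers of female C57BL/6J mice at 28 weeks of age, with 1 library per mouse. The animals received chow or a high-fat diet (HFD) from 8 weeks of age, and for the last 10 weeks 50% of the protein in the HFD came from fishmeal, salmon filet or beef. The labels gave 5 Chow, 5 Fishmeal, 6 Salmon and 4 Beef livers. Mouse 31 was Salmon in its label and Beef in the name of its count column. By the column name, the Chow, Fishmeal, Salmon and Beef groups had 5 livers each. The paper describes diet groups of equal size for sequencing, which the labels do not give. Salmon values by the label may therefore include a beef liver. Mouse 31 still follows the label here, and the numbers of called genes in the salmon and beef comparisons are also given by the column name. No HFD group without an exchanged protein was analysed here. Chow was a separate commercial diet that also differed in its carbohydrate and protein shares, and the HFD mice were heavier. Fat content, protein source and these other differences cannot be told apart in comparisons with chow. All of these comparisons share the same 5 chow livers.

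Library depth was 42526234 to 70266136 counts, and the 41 transferase genes took 0.515 to 0.932% of them. Protein-coding genes held 84.3% of the counts in beef mouse 35 and 93.2 to 95.6% in the other libraries. Hepatocyte markers were abundant in every library: the 12 markers summed to 126775 to 149873 CPM (counts scaled to library size) in chow and 116757 to 151737 CPM in HFD livers. T and B lymphocyte markers were lower in HFD livers for 7 of 10 genes, with summed levels of 6.63 to 14.6 CPM in chow and 2.68 to 7.06 CPM in HFD livers. Sinusoidal endothelial markers were lower for 3 of 10 and cholangiocyte markers for 1 of 10, and 5.21% of all genes tested were called lower in HFD livers. Called were 0 of 10 Kupffer cell and macrophage, 0 of 10 stellate cell and 0 of 4 neutrophil markers. Of 7 red blood cell markers, 1 was higher. The part of these cells in the transferase results was not tested, and in whole liver fewer cells of a type and less RNA per cell cannot be told apart.

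Levels between genes were compared as TPM, which corrects counts for gene length as well as library size. Gstm1, the most abundant mu class enzyme, had the highest mean level at 1787 ± 552 TPM (SD, n = 20) and held 23.9% of the TPM of all 41 genes. Gsta3, an alpha class enzyme that detoxifies aflatoxin epoxide in mice, followed with 729 ± 157 TPM. The leading Ugt genes were Ugt2b36 (560 ± 83.8 TPM), Ugt2b5 (509 ± 110 TPM) and Ugt1a1 (471 ± 67.5 TPM), whose enzyme glucuronidates bilirubin. Their SDs over all livers overlapped, and the place of Ugt1a1 among these 3 genes was not resolved on the TPM scale. As shares of Ugt2b TPM, Ugt2b5 led in every chow liver (32.31 to 34.83%, against 29.55 to 31.55% for Ugt2b36). Ugt2b36 led in every HFD liver (32.86 to 38.12%, against 27.04 to 32.35% for Ugt2b5). Next came Gstt1 (391 ± 69.6 TPM), Gstz1 (382 ± 40.5 TPM), Ugt3a2 (324 ± 31.8 TPM), Ugt2a3 (286 ± 38.6 TPM) and Ugt2b34 (265 ± 40.9 TPM), with the mean ± SD ranges of neighbours again overlapping. Levels of the Ugt1a genes are underestimated on this scale, as their lengths include shared exons described next.

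The Ugt1a genes lie on chromosome 1 (GRCm38, plus strand), each with its own 5′ part, which begins from chr1:88055411-88056336 for Ugt1a10 to chr1:88211959-88212871 for Ugt1a1, and all spliced to the same last 4 exons. The 5′ part encodes the region that binds the substrate, and the common exons the region that binds UDP-glucuronic acid. Between 50.3 and 60.6% of the exonic bases of each Ugt1a gene were shared with the others. Ugt1a8 received only 41 counts over 20 livers, so reads in the shared exons had not been counted for every gene. Per kilobase of unshared exon, Ugt1a1 ranked 2 among the 41 genes, ahead of Ugt2b36 (rank 4) and Ugt2b5 (rank 5). On the same scale, Ugt1a5 ranked 9, Ugt1a6b ranked 15 and Ugt1a9 ranked 16. An antisense gene, Gm20528, overlaps exons of all of them, and whether counting used strand is not given in the sources used here.

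The 250 bases before the start of 3 Ugt1a genes are printed because the genes share their last exons but behaved differently: Ugt1a9 and Ugt1a10 were lower in HFD livers and Ugt1a1 was not called. The windows are RefSeq sequences (GRCm38.p6, plus strand, 5′ to 3′), at chr1:88070529-88070778 for Ugt1a9, chr1:88055161-88055410 for Ugt1a10 and chr1:88211709-88211958 for Ugt1a1. Capitals mark matches, on either strand, to the letters GTTAAT (part of the HNF1 motif), AGGTCA (part of nuclear receptor motifs), TTANGTAA (D-box) or TGACNNNGC (antioxidant response element). N stands for any base.
Ugt1a9: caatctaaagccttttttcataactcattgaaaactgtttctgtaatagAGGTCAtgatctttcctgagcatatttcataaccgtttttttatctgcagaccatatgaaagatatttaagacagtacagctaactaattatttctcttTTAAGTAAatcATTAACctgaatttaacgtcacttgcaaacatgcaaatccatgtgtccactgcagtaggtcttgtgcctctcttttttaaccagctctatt
Ugt1a10: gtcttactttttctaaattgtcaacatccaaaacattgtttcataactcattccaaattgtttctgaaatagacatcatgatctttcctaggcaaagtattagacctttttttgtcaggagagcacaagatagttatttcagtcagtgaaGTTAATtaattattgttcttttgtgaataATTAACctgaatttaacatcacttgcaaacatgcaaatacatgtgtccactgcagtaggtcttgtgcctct
Ugt1a1: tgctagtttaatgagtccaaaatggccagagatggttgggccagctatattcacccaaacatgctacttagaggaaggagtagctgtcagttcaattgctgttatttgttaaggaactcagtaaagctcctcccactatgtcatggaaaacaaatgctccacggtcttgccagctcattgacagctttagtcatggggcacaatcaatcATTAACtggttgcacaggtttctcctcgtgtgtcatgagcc
The Ugt1a9 window held an AGGTCA match, a D-box match and a GTTAAT match, none overlapping another. The Ugt1a10 window held 2 GTTAAT matches and the Ugt1a1 window 1. The Ugt1a9 and Ugt1a10 windows were 81.6% identical over 228 aligned bases, and the own 5′ exons of these genes 91.0% over 885 bases.

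RefSeq promoter windows (250 bases before to 50 after the start) matched 37 of the 41 genes, with 45 windows. GTTAAT, part of the HNF1 motif, was present in 15.6% of them and in 7.10% of all promoters. AGGTCA, part of nuclear receptor motifs, was in 20% against 16.3%. The D-box was in 4.44%, which is 2 windows, against 2.32%. The antioxidant response element was in 6.67% against 12.4% of all promoters, with matches at Gsta3, Gstm5 and Gstm7, and GCGTG (xenobiotic response element) in 22.2% against 32.4%. CAAAGTCCA (HNF4) and CACGTG (E-box) were in 0% of the members' windows and in 0.475 and 7.15% of all. These are counts of letters and not binding sites.

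HFD livers were first compared with chow livers with the 3 protein sources pooled. Of 40 genes tested (Ugt1a8 fell below the filter on low counts), 14 passed the threshold of an adjusted p of 0.05 in edgeR's quasi-likelihood test, 4 higher and 10 lower in HFD livers. That was 35% of the tested transferase genes, beside 9.75% of all 17120 genes tested (4.54% higher and 5.21% lower). The median log2 fold change was -0.33 for the 40 genes and 0.00499 for all genes tested. The lower genes were Gsta2, Gstm1, Gstm3, Gstm4, Gstm5, Gstp1, Gsto1, Ugt1a9, Ugt1a10 and Ugt2b37, and the higher genes Gstk1, Gstz1, Ugt1a6b and Ugt3a1. The groups did not overlap for Gstm4, Ugt1a9, Ugt1a10 and Ugt1a6b, 4 genes, beside 1.64% of all genes. The other 26 genes had log2 fold changes from -0.61 to 0.60 with adjusted p of 0.0637 or more.

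**Figure D1:**
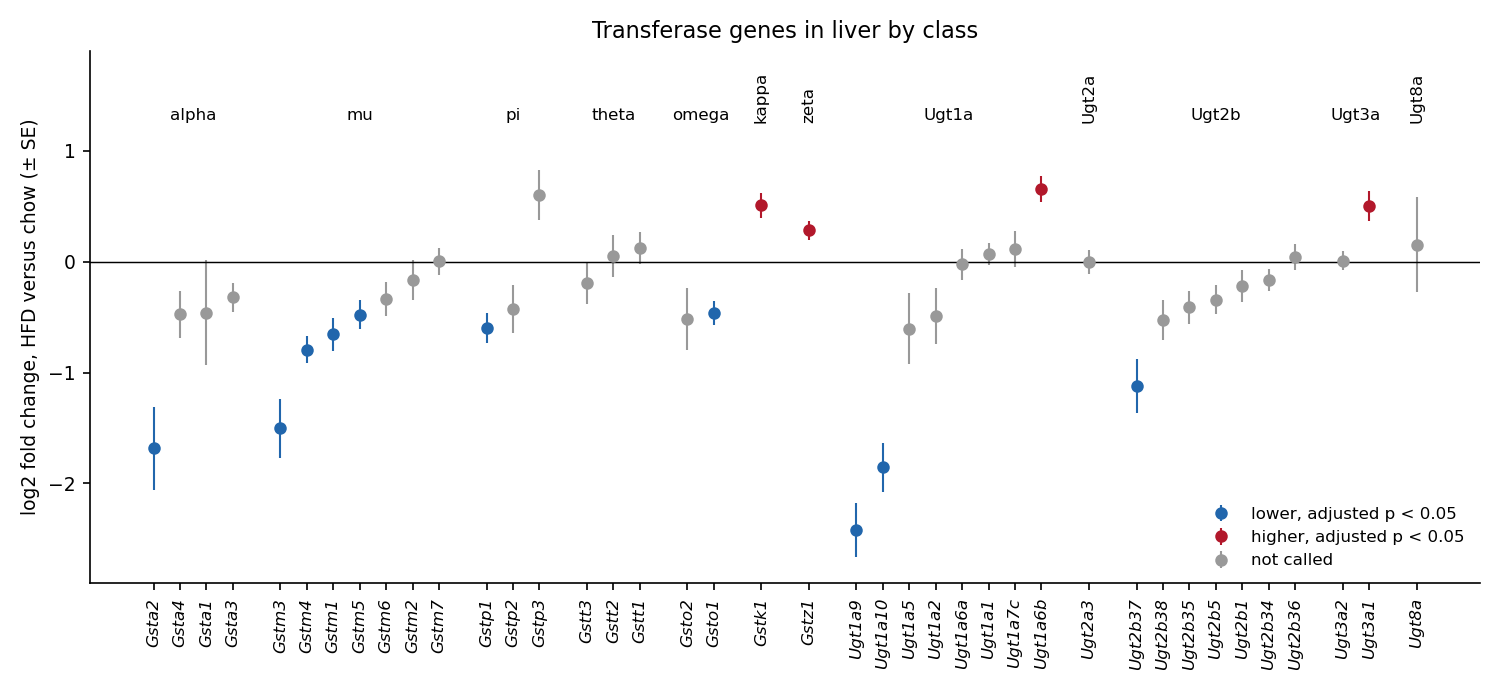
Log2 fold change between HFD and chow livers for the 40 tested transferase genes, grouped by class or family, with the standard error as a bar; coloured points passed the edgeR test. The points run from -2.42 for Ugt1a9 to 0.65 for Ugt1a6b, and 4 of the 7 mu class genes are called lower.

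Ugt1a9, which glucuronidates phenols and fatty acid derivatives, fell most. Its levels in chow mice 1, 2, 5, 7 and 10 were 141, 114, 91.1, 111 and 102 CPM, and in the 15 HFD livers 5.91 (lowest), 22.2 (median) and 33.2 CPM (highest). All HFD livers lay below all chow livers. The log2 fold change was -2.42 (SE 0.243, 5.35-fold lower, edgeR adjusted p = 1.27e-06). By diet label, Ugt1a9 averaged 25.3 ± 3.27 CPM with fishmeal (n = 5), 15.8 ± 8.32 CPM with salmon (n = 6) and 23.0 ± 9.72 CPM with beef (n = 4). Salmon mouse 31 at 29.9 CPM was the highest of its labelled group, in which the other 5 mice ranged from 5.91 to 19.3 CPM.

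Ugt1a10 was present at low level, with 0.825, 0.902, 1.67, 0.955 and 0.839 CPM in the same chow mice and 0.123, 0.269 and 0.471 CPM as lowest, median and highest value of the HFD livers. The groups were again separate. The change was -1.86 on the log2 scale (SE 0.221, edgeR adjusted p = 1.12e-05), from 45 to 96 counts per chow liver and 7 to 27 per HFD liver. Its counts were a median of 0.821% of those of Ugt1a9 in chow and 1.37% in HFD livers. The own exons of both genes are 91.0% identical, and whether reads of the abundant gene were counted for the rare one was not tested. Ugt1a8, an untested neighbour, had 4 to 12 counts in each chow liver and 0 to 3 in each HFD liver, with 12 of 15 at 0.

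A row outside the rule showed the same direction and was chosen after its values were seen. Gm15375 is an unprocessed pseudogene at chr1:88025211-88026059, 93.9% identical to Ugt1a10 over 850 bases. It averaged 3.23 ± 1.09 CPM in chow and 0.301 ± 0.128 CPM in HFD livers (log2 fold change -3.42, SE 0.25, edgeR adjusted p = 1.11e-08).

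Ugt1a6b, a phenol-conjugating isoform, went the other way. Chow mice 1, 2, 5, 7 and 10 had 39.2, 27.6, 40.9, 27.6 and 34.7 CPM, and the HFD livers 41.7 (lowest), 53.1 (median) and 69.1 CPM (highest). Every HFD liver was above every chow liver, with 41.7 against 40.9 CPM at the boundary. The log2 fold change was 0.65 (SE 0.117, 1.57-fold higher, edgeR adjusted p = 0.000982). Ugt1a6a, whose own exons are 97.4% identical to those of Ugt1a6b over 986 bases, had 16.7 ± 3.31 CPM in chow and 16.4 ± 3.02 CPM in HFD livers and was not called (log2 fold change -0.03, adjusted p = 0.937). Reads of this near-identical pair may be split uncertainly between them.

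Ugt1a1 was the most abundant of the family and was not called, with 401 ± 60.6 CPM in chow and 419 ± 51.9 CPM in HFD livers (log2 fold change 0.07, SE 0.101, adjusted p = 0.746). Ugt1a5 varied widely within each diet. It measured 137, 191, 131, 199 and 82.5 CPM in the chow mice and 32.1, 97.3 and 189 CPM as lowest, median and highest of the HFD livers, and the groups overlapped (log2 fold change -0.61, SE 0.319, adjusted p = 0.252). As a share of all Ugt1a counts, Ugt1a9 was 15.6 ± 1.73% in chow and 3.39 ± 1.24% in HFD livers, while Ugt1a6b was 4.80 ± 0.998 and 8.76 ± 1.142%. Ugt1a1 was 56.1 ± 6.40% in chow and 68.8 ± 7.13% in HFD livers. These shares are linked to one another, since they add up within a liver.

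**Figure D2:**
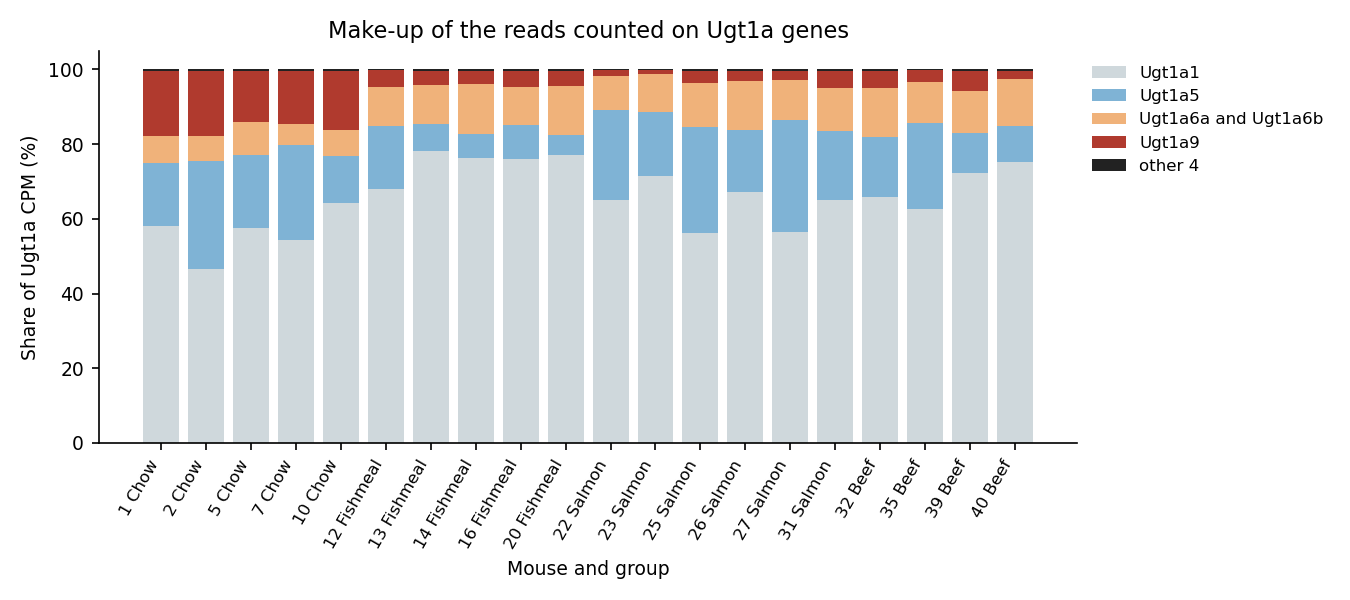
Share of all Ugt1a counts (CPM, percent) taken by each Ugt1a gene in each of the 20 livers, as stacked bars by diet. The Ugt1a9 band is 13.6 to 17.3% in the chow livers and 1.03 to 5.52% in the HFD livers.

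**Figure D3:**
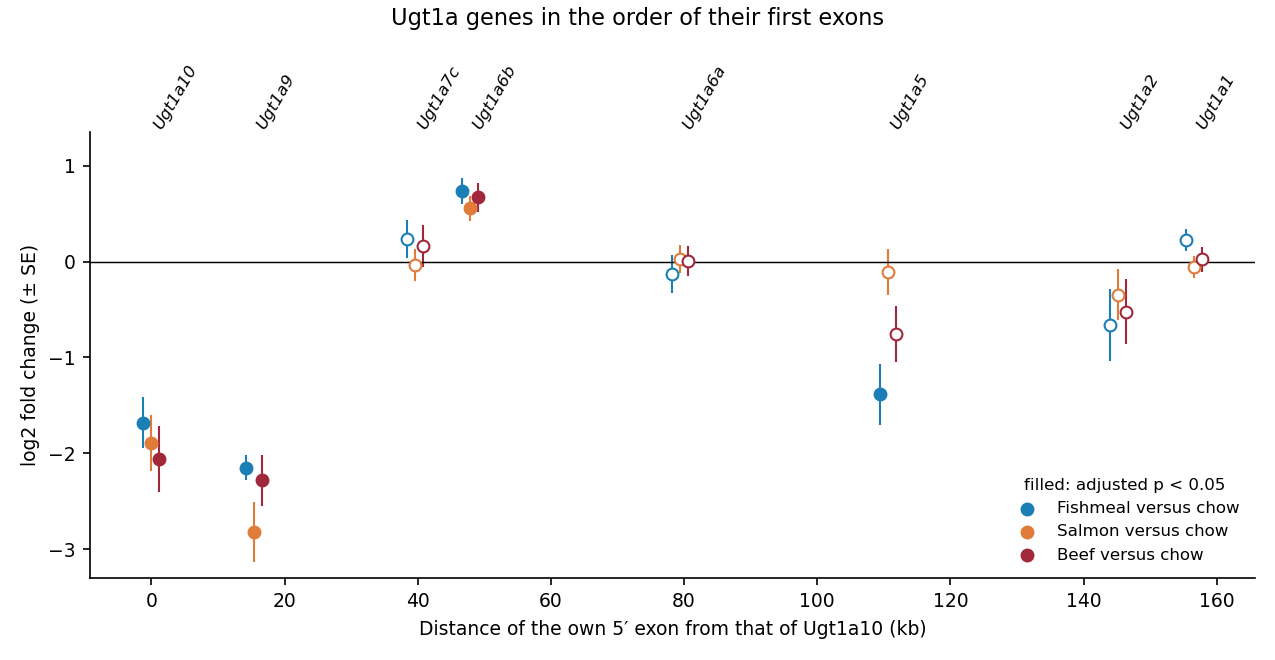
Log2 fold change against chow (with standard error) of the 8 tested Ugt1a genes for each HFD, plotted against distance in kb from the own exon of Ugt1a10; filled points passed the edgeR test, and points are shifted sideways slightly. Ugt1a10 and Ugt1a9 are lower and Ugt1a6b is higher in all 3 diets.

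In the mu class, 4 of 7 genes were lower in HFD livers. The genes form a cluster on chromosome 3 (chr3:107895821-107898686 for Gstm5 to chr3:108040408-108044894 for Gstm4). Gstm4 measured 89.6, 102, 83.9, 93.0 and 94.1 CPM in the chow mice, and 38.9, 51.7 and 73.5 CPM as lowest, median and highest of the HFD livers. No HFD liver reached a chow value (log2 fold change -0.80, SE 0.121, edgeR adjusted p = 0.000212). Gstm3 had 80.3, 119, 44.8, 96.2 and 50.1 CPM in chow, and 14.6, 23.6 and 61.4 CPM in HFD livers. Its groups overlapped, at fishmeal mice 12 and 16 with 46.9 and 61.4 CPM, but all 15 HFD livers were below the chow mean (log2 fold change -1.50, SE 0.265, 2.83-fold lower, edgeR adjusted p = 0.000848).

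Gstm1 had 1596, 1502, 1263, 1616 and 1193 CPM in chow and 626, 867 and 1486 CPM as lowest, median and highest in HFD livers (log2 fold change -0.66, SE 0.147, edgeR adjusted p = 0.00623). The groups overlapped, and 14 of 15 HFD livers were below the chow mean. It is 97.9% identical to the pseudogene Gstm2-ps1 over 657 bases, so some of its reads may be uncertain. Gstm5, a mu class gene better known from brain and testis, changed by -0.48 (SE 0.133, edgeR adjusted p = 0.024, 11.2 ± 2.01 against 8.05 ± 1.54 CPM). Without chow mouse 1 its log2 fold change was -0.36 (edgeR adjusted p = 0.135, beside 5.7% of all genes called). Without chow mouse 7 it was -0.48 (edgeR adjusted p = 0.0554, beside 6.07% of all genes called). The call was thus lost in both fits. Summed over the class, mu TPM averaged 3268 ± 521 in chow and 2045 ± 424 in HFD livers, a log2 ratio of -0.68.

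The alpha class is represented by 4 genes, of which Gsta2 was lower. Chow mice 1, 2, 5, 7 and 10 had 49.1, 27.6, 21.01, 35.9 and 20.9 CPM, and the HFD livers 1.98 (lowest), 9.46 (median) and 22.0 CPM (highest). The ranges overlapped at fishmeal mice 12 and 16, which had 22.0 and 21.6 CPM and lay above chow mice 5 and 10. All 15 HFD livers lay below the chow mean. The log2 fold change was -1.68 (SE 0.374, 3.21-fold lower, edgeR adjusted p = 0.00575). Gsta2 is near-identical to Gsta1 (97.2% over 870 bases), Gm10639 and Gm3776, so reads may be shared between them, and Gsta1 held a median of 0.746% of its counts in chow. Gsta3, which carries most of the class level, had 1476 ± 309 CPM in chow and 1181 ± 217 CPM in HFD livers (log2 fold change -0.32, adjusted p = 0.133, not called).

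In the pi class, Gstp1 was lower and its neighbour Gstp3 was not called. Gstp1 measured 72.1, 109, 92.9, 108 and 89.6 CPM in chow and 44.1, 61.1 and 97.4 CPM in HFD livers (log2 fold change -0.60, SE 0.133, edgeR adjusted p = 0.0057). The HFD maximum was fishmeal mouse 12, and the other 14 HFD livers were below the chow mean. Gstp1 is 94.2% identical to Gstp2 over 798 bases. Gstp3, named after its values were seen, had 23.3 ± 5.57 CPM in chow and 35.2 ± 12.5 CPM in HFD livers (log2 fold change 0.60, SE 0.226, adjusted p = 0.0982). Its share of pi class TPM was 29.3 ± 3.24% in chow and 48.0 ± 7.33% in HFD livers.

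The smaller classes differed in direction. Gsto1, an omega class enzyme that reduces dehydroascorbate and methylated arsenicals, was lower (58.8 ± 8.81 in chow, 42.6 ± 6.87 CPM in HFD, log2 fold change -0.47, SE 0.109, edgeR adjusted p = 0.00841). Gstk1 was higher, with 68.1, 50.7, 56.9, 50.4 and 68.6 CPM in chow and 62.8, 81.2 and 123 CPM as lowest, median and highest in HFD livers (log2 fold change 0.51, SE 0.114, edgeR adjusted p = 0.00612). All 15 HFD livers were above the chow mean, although the ranges overlapped at beef mouse 35. Gstz1, which catalyses a step of tyrosine breakdown, was higher by 0.28 (SE 0.0865, edgeR adjusted p = 0.0408, 665 ± 53.8 against 808 ± 87.7 CPM). That call was lost without any 1 of mice 1, 2, 5, 7, 25, 39 or 40. The 3 theta genes were not called (adjusted p of 0.585 to 0.901), with Gstt1, a broad-range conjugating enzyme, at 223 ± 32.7 CPM in chow and 243 ± 53.8 CPM in HFD livers (log2 fold change 0.12, adjusted p = 0.64).

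**Figure D4:**
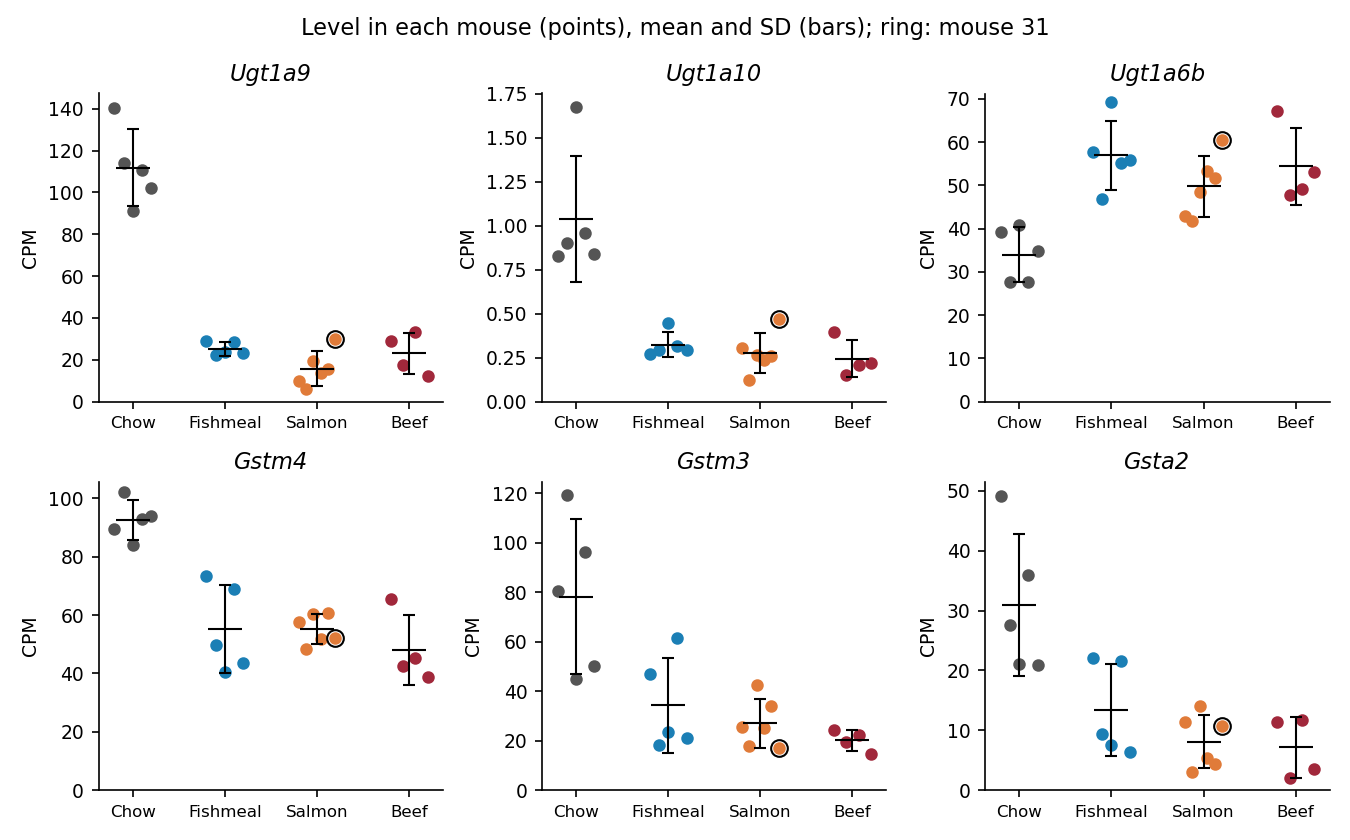
CPM in each liver for Ugt1a9, Ugt1a10, Ugt1a6b, Gstm4, Gstm3 and Gsta2, by diet, with group mean and SD; the ring marks mouse 31. The chow and HFD livers are separate for Ugt1a9, Ugt1a10, Ugt1a6b and Gstm4, and fishmeal mice 12 and 16 reach into the chow range for Gstm3 and Gsta2.

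Of the Ugt2 and Ugt3 genes, 1 was lower and 1 higher. Ugt2b37, a gene of the Ugt2b cluster on chromosome 5, had 5.63, 3.95, 7.68, 8.72 and 7.55 CPM in chow and 1.56, 2.88 and 6.93 CPM in HFD livers (log2 fold change -1.12, SE 0.243, edgeR adjusted p = 0.00474). The groups overlapped, with the HFD maximum in fishmeal mouse 20. Near-identical copies exist here too: Ugt2b5, Ugt2b37 and Ugt2b38 are 93.2 to 95.5% identical. Ugt3a1, which uses N-acetylglucosamine in place of glucuronic acid, was higher (80.8 ± 23.1 in chow, 114 ± 15.2 CPM in HFD, log2 fold change 0.50, SE 0.135, edgeR adjusted p = 0.0211), and the call was lost without chow mouse 2 (adjusted p = 0.0766) or 7 (0.0845). Of the abundant genes, Ugt2b36 (0.04, adjusted p = 0.88), Ugt2b5 (-0.34, 0.0932), Ugt2b34 (-0.17, 0.32), Ugt3a2 (0.01, 0.969) and Ugt2a3 (adjusted p = 0.99) were not called. Ugt8a, which makes galactosylceramide and is typical of myelin-forming cells, had 0.213 ± 0.100 CPM in chow and 0.236 ± 0.141 CPM in HFD livers, too low to resolve a difference.

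**Figure D5:**
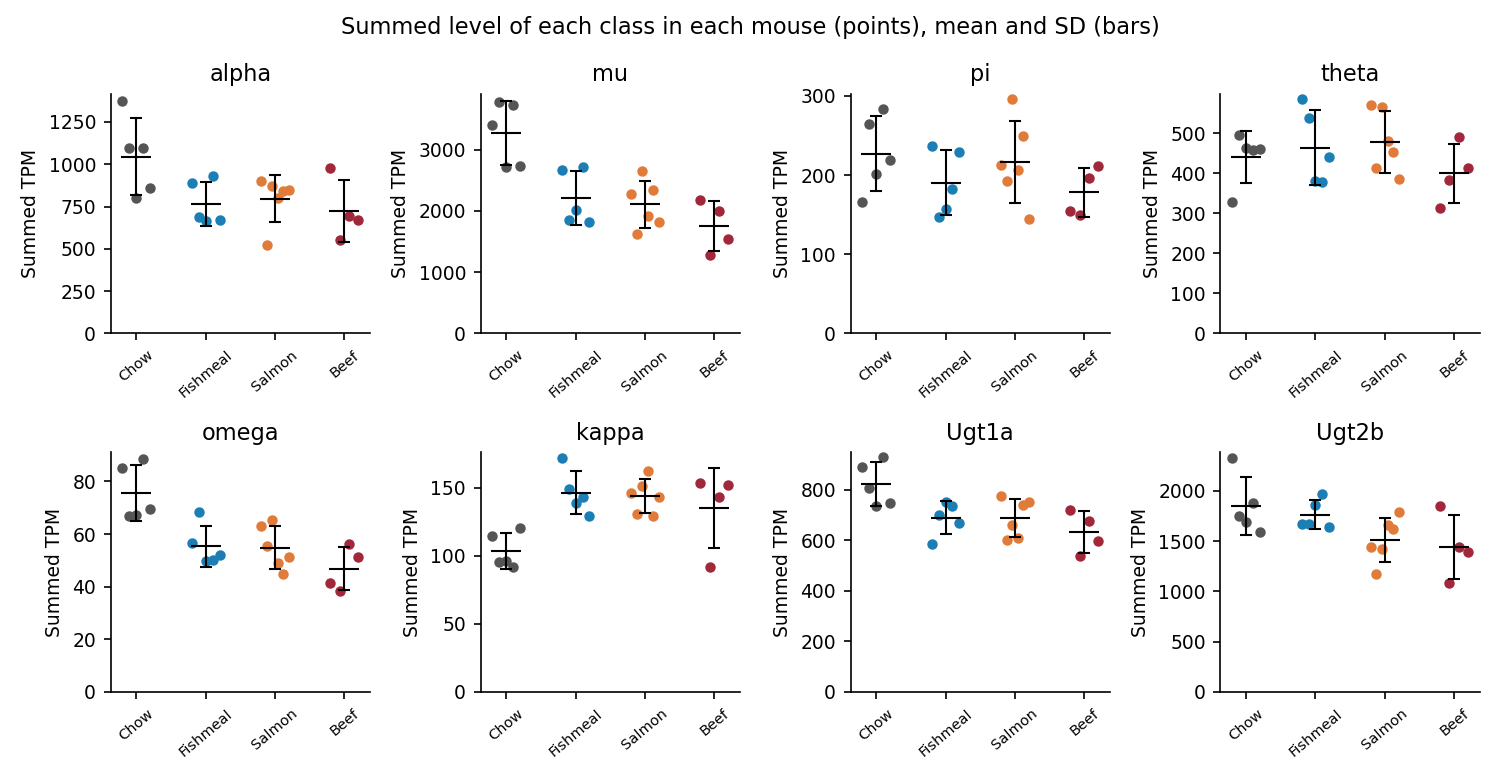
Summed TPM per liver of the alpha, mu, pi, theta, omega and kappa classes and of the Ugt1a and Ugt2b families, by diet. The mu class sum is 2716 to 3783 TPM in chow and 1286 to 2708 TPM in HFD livers, and the kappa sum, which is Gstk1 alone, is 91.8 to 121 and 91.9 to 172 TPM.

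Each diet was then compared with chow on its own. With fishmeal, 5 of 40 genes were called (12.5%, beside 3.38% of all genes tested): Gstm4 (-0.76, edgeR adjusted p = 0.0221), Ugt1a5 (-1.38, 0.0343), Ugt1a9 (-2.15, 4.85e-06) and Ugt1a10 (-1.68, 0.00493) were lower, and Ugt1a6b (0.74, 0.0117) was higher. Ugt1a5 had 108, 43.2, 41.6, 61.6 and 32.1 CPM in fishmeal mice 12, 13, 14, 16 and 20, against 82.5 to 199 CPM in chow. Mouse 12 overlapped the chow group. This call was lost in 8 of 10 fits that left out 1 mouse and that of Gstm4 in 5 of 10.

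With salmon, 11 of 39 genes were called (28.2%, beside 4.46% of all genes tested). These were Gstk1 (0.48) and Ugt1a6b (0.56) on the higher side, and Gsta2 (-1.92), Gstm1 (-0.67), Gstm3 (-1.53), Gstm4 (-0.74), Gstp1 (-0.57), Ugt1a9 (-2.82), Ugt1a10 (-1.89), Ugt2b37 (-1.24) and Ugt2b38 (-0.75) on the lower side. Ugt2b38 had 34.1, 20.2, 21.2, 25.6 and 24.1 CPM in the chow mice and 11.4, 13.6 and 22.4 CPM as lowest, median and highest in salmon livers, and only mouse 31 reached the chow range. Grouped by the column name, which moves mouse 31 to beef, the same 11 genes were called, beside 4.42% of all genes, and Ugt1a9 was at -3.10 and Ugt2b38 at -0.91. Without chow mouse 7 only 6 of the 11 remained, and Ugt2b38 was lost without any 1 of mice 1, 7, 22, 23, 25, 26 or 27.

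With beef, 9 of 40 genes were called (22.5%, beside 2.48% of all genes tested): Ugt1a6b (0.67) higher, and Gsta2 (-2.12), Gstm1 (-0.87), Gstm3 (-1.96), Gstm4 (-0.95), Gsto1 (-0.60), Ugt1a9 (-2.28), Ugt1a10 (-2.06) and Ugt2b37 (-1.61) lower. By the column name, 11 were called, beside 3.05% of all genes, as Gstm6 (-0.53) and Gstp1 (-0.74) joined. Between these groupings of mouse 31, the log2 fold changes of the 11 genes called by the label with salmon moved by at most 0.28 and those of the 9 with beef by at most 0.25. The beef calls were sensitive to leaving out single mice. Without beef mouse 40, 3 genes remained called, beside 0.593% of all genes. Gsto1 was lost without any 1 of the 9 mice and Gsta2 in 8 of 9 fits. Gstm4, Ugt1a9, Ugt1a10 and Ugt1a6b were called in all 3 diets, which share the chow livers. With 1 mouse left out, the Ugt1a6b call remained in 2 of 9 fits with beef, 5 of 11 with salmon and 10 of 10 with fishmeal. DESeq2 called 8 transferase genes with fishmeal, 17 with salmon and 14 with beef, beside 7.13%, 8.94% and 6.78% of all genes.

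Between the high-fat diets, edgeR called 0 transferase genes in every pair. Among all genes the called share was 0.157% for fishmeal against salmon, 0.00607% for fishmeal against beef and 0% for salmon against beef, and by the column name 0.17%, 0.0245% and 0%. At an unadjusted edgeR p under 0.05 there were 10 of 39, 4 of 40 and 2 of 39 transferase genes, beside 4.24%, 2.33% and 3.71% of all genes tested. Of the 10 between fishmeal and salmon, 8 were Ugt genes. The median log2 fold change there was 0.25 for the 19 Ugt genes tested, 4 of them lower with fishmeal. It was 0.04 for the 20 Gst genes, 7 of them lower, and 0.0107 for all genes. By the column name, 11 of 39, 4 of 40 and 7 of 39 had an unadjusted p under 0.05, beside 5.16%, 2.59% and 4.91% of all genes. DESeq2 called 1 gene, Ugt1a5, between fishmeal and salmon (DESeq2 adjusted p = 0.00368) and 0 in the other pairs, beside 0.496%, 0.176% and 0.0121% of all genes. Called by limma on log2(TPM + 1) were 0 in each pair, beside 0.253%, 0% and 0%. The edgeR log2 fold change of Ugt1a5 was -1.26 (SE 0.298, edgeR adjusted p = 0.236), with 57.3 ± 30.4 CPM in fishmeal and 137 ± 41.3 CPM in salmon livers. The edgeR adjusted p was 0.0124 without fishmeal mouse 12 and 0.186 to 0.632 when any other single mouse was left out. Over the other edgeR settings and limma it ranged from 0.0623 to 0.266.

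Genes that supply, export or regulate conjugation were read from lists chosen with earlier results of these data known. They were counted over genes tested in HFD against chow. These counts stand beside 9.75% of all genes called there (4.54% higher and 5.21% lower). Of 16 genes of glutathione synthesis and breakdown, 2 were higher (Chac1, which degrades glutathione, at 2.22 with edgeR adjusted p = 0.00626, and Chac2 at 0.36) and 1 lower (Ggct, -0.39). Of 11 other glutathione transferases and related proteins, 1 was lower, the related protein Clic4 (-0.32). For the supply of UDP-glucuronic acid, Pgm1 (0.34) and Ugp2 (0.50) were higher. Ugdh, the enzyme that makes UDP-glucuronic acid, was lower, with 135 ± 28.8 CPM in chow and 83.3 ± 20.0 CPM in HFD livers (-0.69, SE 0.156, edgeR adjusted p = 0.00642). Among 10 transporters of conjugates, Abcc4 was lower (-0.92) and Abcc6 higher (0.62).

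Among 20 receptors and regulators, 4 were higher, Mafg (0.64), Nr3c1 (0.28), Ppara (0.85) and Cebpa (0.48, named after its values were seen), and Ahr, the aryl hydrocarbon receptor, was lower (67.8 ± 5.15 against 49.8 ± 3.64 CPM, -0.45, edgeR adjusted p = 9.85e-05). The genes of PXR (Nr1i2, -0.13), CAR (Nr1i3, 0.26) and Nrf2 (Nfe2l2, -0.22) were not called (adjusted p of 0.416, 0.453 and 0.152). Of 18 targets of CAR and PXR, 7 were lower and 3 higher. Cyp2b10, a widely used CAR readout, was 35.3 ± 20.1 CPM in chow and 1.99 ± 1.37 CPM in HFD livers (-4.14, SE 0.365, edgeR adjusted p = 2.57e-07), and Ces2a (-0.89) and Cyp2c55 (-1.71) were lower and Cyp2b13 (0.99) higher. Of 18 Nrf2 targets, 4 were lower (Abcc4, Ephx1 -0.59, Akr1b8 -0.48, G6pdx -1.004). Of 6 AhR targets, Cyp1a2 (-0.94) and Cyp1a1 (-1.29) were lower. Of 18 PPAR-alpha targets, Vnn1 was higher (1.08) and Pdk4 lower (-1.29), and of 25 sex-biased genes 4 were higher and 5 lower. Among all genes tested, 4.54% were called higher and 5.21% lower.

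Clock genes moved with the diet groups: 9 of 17 were higher and 2 lower, beside 4.54% and 5.21% of all genes. The leading component of the clock genes ranged from -5.20 to -2.38 in chow and from -3.75 to 6.70 in HFD livers. With this component as a covariate, 5 transferase genes were called, namely Gstk1, Gstp1, Ugt1a6b, Ugt1a9 and Ugt1a10, beside 1.84% of all genes tested. The log2 fold change of Ugt1a9 was -2.27 (edgeR adjusted p = 0.00162). Gstm4 was then at -0.51 (edgeR adjusted p = 0.0725), Gstm3 at -1.16 (0.153) and Gsta2 at -1.05 (0.391). Of the HFD livers, salmon mouse 31 alone lay within the chow range of the component, so diet and clock state cannot be told apart here. Within the 15 HFD livers, the 14 called genes were each correlated with the component. The strongest relation was Gstm4, with Pearson's r of -0.61 (permutation p = 0.03, adjusted 0.42) and Spearman's rho of -0.55 (permutation p = 0.048, adjusted 0.34), and r was -0.45 without the 2 livers farthest from the median. The other 13 genes had adjusted permutation p of 0.34 or more.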

How the data were processed

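Polyadenylated RNA from 20 livers was sequenced with a strand-specific kit. The authors deposited raw read counts per gene, and TPM values computed from them. Per the study's methods, reads were trimmed with BBDuk, aligned with HISAT2 and counted with featureCounts 1.4.6-p1. The submitters' notes print GRCh38, although the features are mouse Ensembl genes. Counting settings for strand and for reads in several genes are not given in the sources used here. Counts were fitted with edgeR 4.0 (TMM, filterByExpr with a minimum count of 10, quasi-likelihood F-test, two-sided) over the whole table, with Benjamini-Hochberg adjustment over all genes tested and a threshold of 0.05. DESeq2 1.42 and limma 3.58 on log2(TPM + 1) were alternatives, beside other filters, a fit on all 4 groups, the clock component as covariate and each liver left out. R 4.3 and Python 3.11 were used, and the fits were tested on simulated data. Positions come from the GENCODE annotation of GRCm38, and identities from blastn 2.17. Named genes are those called in any of 7 comparisons, the 10 with the highest TPM and single members of a class, and up to 4 called genes per list. The members and lists were chosen with earlier results of these data known. The result of 1 gene of the UDP-glucuronate list is not reported here.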

Additional observations from a re-analysis of the deposited data

Results flagged for a closer look

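In 100 groups of 4 to 6 livers (25 genes in 4 diets), 11 had a liver far from the others by Dixon's criterion, which chance gives in about 1 in 20 groups. Of these, 3 were in chow mouse 1, with Gstt1 at 165.8 CPM (others 226 to 247), Ugt2a3 at 305 CPM (219 to 230) and Ugt2b36 at 599 CPM (391 to 434). Fishmeal mouse 12 was highest for Gstk1 at 123 CPM (71.7 to 85.5) and Gstp1 at 97.4 CPM (48.8 to 61.1). Salmon mouse 23 was lowest for Gsta3 at 849.7 CPM (1216 to 1342), and salmon mouse 31, whose group is in doubt, was highest for Ugt2b38 at 22.4 CPM (11.4 to 14.99). Beef mouse 35 was lowest for Ugt1a1 at 354 CPM (423 to 435). Ugt1a10 was highest in chow mouse 5 at 1.67 CPM (0.825 to 0.955) and in fishmeal mouse 14 at 0.448 CPM (0.269 to 0.315), and Ugt8a in fishmeal mouse 20 at 0.382 CPM (0.116 to 0.174).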

How the results depend on the processing

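The count of called genes in HFD against chow was 13 to 15 under 6 alternatives to normalization, filter and tool (4.57% to 12.6% of all genes), and 5 with the clock component (1.84%). DESeq2 called 8 with fishmeal (7.13% of all genes), 17 with salmon (8.94%), 14 with beef (6.78%) and 1 between fishmeal and salmon (0.496%), and a fit on all 4 groups called 9 with fishmeal (4.82%). Leaving out 1 liver gave 11 to 17 calls for HFD (5.7% to 11.3% of all genes), 3 to 8 for fishmeal (1.73% to 4.1%), 6 to 11 for salmon (1.86% to 4.42%), 3 to 10 for beef (0.593% to 3.79%) and 0 to 1 between fishmeal and salmon (0.108% to 0.245%). The causes were not tested. Among the genes named by the rule above, signs turned only for uncalled genes near 0. Ugt2a3 was 0.000545 with genes of at least 1 count, 0.13 with the clock component and -0.040 to 0.096 without 1 liver. Ugt2b36 was -0.0099 by limma and -0.0055 to 0.17 without 1 liver, and Ugt3a2 -0.033 and -0.066 to 0.082. Without 1 liver, Ugt1a1 was -0.016 to 0.13 and Ugt8a -0.019 to 0.40. Other genes were not part of this check. With the clock component, Gstt2 and Gstt3, both uncalled, also changed sign, to -0.21 and 0.11. With at least 10 counts in every library, Ugt1a10 had no value in HFD, salmon or beef. No paired analysis was possible because the labels number the mice across the whole series and give no number that groups share. Ugt1a levels per unshared kilobase were added after the data were seen. Depth limits Ugt1a10, Ugt1a8 and Ugt8a, with at most 96 counts per liver. It also limits the uncalled genes Gsta1, Gsto2, Gstp2 and Ugt1a2, with at most 31, 31, 43 and 51 counts per liver.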
